A study of Mus musculus with 36 samples.

Results

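Progenitors are the cells that the study's authors annotated as progenitor in single-cell RNA data from the small intestine of 12-month-old wild type mice, strain C57BL6/2J. They were found by matching the deposited cell annotation to 2 droplet (10x Genomics Chromium) count matrices by library and cell barcode. They were 694 of 2614 annotated cells. The 2 libraries carry the labels set1 and set2, and are called replicate 1 and replicate 2 here. Both are of the same age, strain and genotype, so no treatment or genotype was contrasted, and the labels do not say whether they came from different mice. The other 7 annotated types were ISC (intestinal stem cell), secretory progenitor, enterocyte, goblet, Paneth, EEC (enteroendocrine cell) and tuft.

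The epithelium of the small intestine is renewed from stem cells at the crypt base. Their daughters divide several times in the crypt as transit-amplifying progenitors, then leave the cell cycle and become absorptive enterocytes or secretory cells. Dividing cells switch gene sets in order: DNA replication genes, driven largely by E2F factors, peak at the start of S phase, and genes for chromosome condensation, the spindle and mitosis peak in G2 and M phase. Many of the mitotic genes are repressed in resting cells by the DREAM complex through a promoter element called the cell cycle genes homology region (CHR), and are switched on with NF-Y at CCAAT boxes nearby.

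Replicate 1 held 330 progenitors among 1144 annotated cells, or 28.8% (exact binomial 95% interval 26.2 to 31.6). Replicate 2 held 364 among 1470, or 24.8% (22.6 to 27.1). These intervals cover counting error only. A unique molecular identifier (UMI) marks 1 captured RNA molecule. The median progenitor had 17366 UMIs in replicate 1 and 26650 in replicate 2, beside 16258 and 24482 in the other annotated cells. The lowest progenitor had 8383 UMIs in replicate 1 and 1326 in replicate 2. The libraries shared no cell barcode. The median share of mitochondrial UMIs in progenitors was 5.79% and 9.64%. Epcam, an epithelial surface protein, stood at 1393 and 2358 summed counts scaled to 1000000 per type and library (CPM) in progenitors. Ptprc, the pan-leukocyte protein CD45, stood at 1.99 and 4.04 CPM.

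There are 4 genes that serve here as markers of the label. They are Mki67, a coat protein of mitotic chromosomes, and Top2a, the topoisomerase that untangles them. The others are Cdk1, the kinase that starts mitosis, and Ccnb1, its cyclin partner cyclin B1. The promoters of all 4 are shown for the elements named above. Mcm6, a subunit of the replicative helicase, is added as an example of an S phase gene with E2F letters. The sequences are the RefSeq windows of mouse build GRCm38.p6, cut to 120 bases upstream of the annotated start and read 5′ to 3′ along the gene. The stretch ends at the base before the start for Cdk1, Ccnb1 and Mcm6, at position −11 for Top2a and at position −72 for Mki67. The Top2a and Mki67 stretches stop there so as to lie upstream of every annotated exon of the gene. All 5 genes lie on the minus strand. The stretches are chr10:69352913-69353032 for Cdk1, chr11:99024200-99024319 for Top2a, chr7:135716451-135716570 for Mki67, chr13:100786487-100786606 for Ccnb1 and chr1:128359706-128359825 for Mcm6. Capitals mark letters found on either strand. The CHR was searched as TTTGAA and also in a variant form, TTCGAA. The NF-Y box was searched as CCAAT. The E2F element was searched as TTTCCCGC, TTTCGCGC, TTTGGCGC and TTTGCCGC.
Cdk1: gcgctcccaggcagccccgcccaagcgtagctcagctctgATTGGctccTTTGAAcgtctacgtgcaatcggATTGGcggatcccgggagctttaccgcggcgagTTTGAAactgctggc
Top2a: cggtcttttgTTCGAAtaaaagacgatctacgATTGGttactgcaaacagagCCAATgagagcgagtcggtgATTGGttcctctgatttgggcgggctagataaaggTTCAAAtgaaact
Mki67: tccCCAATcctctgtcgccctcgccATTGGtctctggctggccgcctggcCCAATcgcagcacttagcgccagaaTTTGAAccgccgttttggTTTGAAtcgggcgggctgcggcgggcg
Ccnb1: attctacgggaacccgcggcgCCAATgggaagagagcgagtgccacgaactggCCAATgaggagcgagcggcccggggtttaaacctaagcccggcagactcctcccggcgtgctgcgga
Mcm6: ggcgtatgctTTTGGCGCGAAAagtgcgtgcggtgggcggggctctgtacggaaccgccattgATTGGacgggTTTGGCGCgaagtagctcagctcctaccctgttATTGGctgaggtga

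The Cdk1, Top2a and Mki67 stretches each hold 2 CHR letter matches, and the Ccnb1 stretch holds 2 CCAAT boxes with no CHR match in these letters. The Mcm6 stretch holds 3 E2F matches, of which 2 overlap each other. Over the full RefSeq windows of 300 bases (250 before and 50 after a start), 36 of 48 G2 and M phase genes with a window (75%) held a CHR match, against 7 of 33 S phase genes (21.2%) and 21.7% of 27025 genes of any kind. An E2F match was in 14 of the 33 S phase genes (42.4%), in 3 of the 48 G2 and M phase genes (6.25%) and in 2.60% of all genes. A CCAAT box was in 77.1% of the G2 and M phase genes, 72.7% of the S phase genes and 41.1% of all genes. Of the 21 absorptive enterocyte genes with a window, 6 held a CHR match and none an E2F match. Such matches describe letters, and binding was not measured.

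The markers fit the label, and a second annotated type carried them at like levels. Levels here are UMIs summed over all cells of a type in a library, as CPM. Mki67 stood at 151 CPM in replicate 1 and 279 in replicate 2 in progenitors. Top2a stood at 261 and 379 CPM, Cdk1 at 104 and 160, and Ccnb1 at 83.6 and 92.1. In enterocytes the same genes lay between 1.25 CPM (Ccnb1, replicate 1) and 9.33 CPM (Mki67, replicate 2). Secretory progenitors held 235 and 324 CPM of Top2a, and ISC held 21.5 and 33.8 CPM. EEC and tuft cells, which number 23 to 45 cells in a replicate, had Top2a levels between those of ISC and progenitors.

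**Figure D1:**
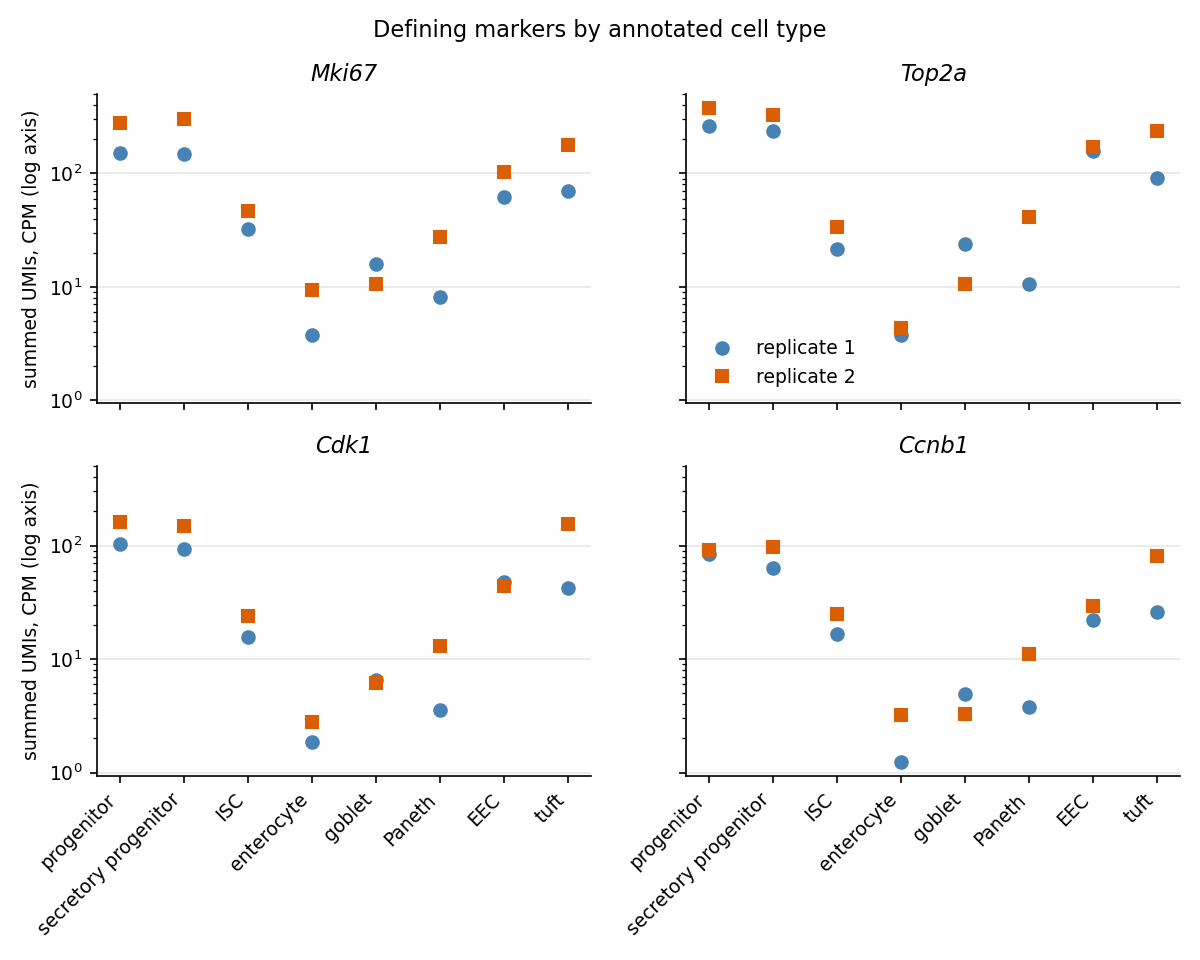
Summed level of the 4 defining markers (CPM, log axis) in each of the 8 annotated types, with a circle for replicate 1 and a square for replicate 2. Progenitors and secretory progenitors hold the highest values of all 4 markers in replicate 1, while in replicate 2 tuft cells come near them for Cdk1 and Ccnb1.

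Since deeper cells show more genes, every cell was also thinned at random to 8000 UMIs, which left all 330 progenitors of replicate 1 and 336 of replicate 2, with 28 too shallow. After thinning, 86.1% and 88.1% of progenitors held a UMI of at least 1 of the 4 markers, beside 91.8% and 93.4% as deposited. The thinned share was 86.6% and 90.8% in secretory progenitors, 30.8% and 56.3% in ISC, and 8.37% and 9.13% in enterocytes. The enterocyte share was the lowest among the 8 types and serves as a reference level. Mature enterocytes do not divide, but whether all annotated enterocytes are mature was not tested. Single thinned enterocytes held as few as 30 and 24 UMIs of absorptive enterocyte genes. How much of the share is free RNA was not tested either. The thinned share was 26.7% and 18.8% in goblet cells and 10.7% and 30.9% in Paneth cells. In EEC it was 40% and 26.2%, and in tuft cells 25% and 52.4%. The source of the marker UMIs in these 4 types was not tested. Single thinned enterocytes held up to 2 marker UMIs in replicate 1 and up to 6 in replicate 2. The enterocyte share as deposited was 14.8% and 24.2%. Top2a alone was seen in 67.6% and 64.3% of thinned progenitors, and Ccnb1 in 40.9% and 45.5%.

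The annotation names clusters of these same cells and is taken to rest on their expression. Progenitors against the rest is therefore a description, and no test was run. A gene is called higher or lower where its summed CPM, with a pseudocount of 1 CPM, differed at least 2-fold the same way in both libraries and the higher group reached 20 CPM in each. That filter acts on the higher group, so counts among genes that reach it support nothing by themselves. Of 5147 genes that reached the level, 461 were higher in progenitors (8.96%) and 280 were lower (5.44%). Paneth cells gave 32.7% and 12.4% of the other cells' UMIs, and the median log2 fold of all tested genes was 0.62 and 0.29. Values below are to be read against that shift. Scaling by edgeR's TMM factors, which moves progenitors over the rest by 0.54 and 0.26 log2 units, left 209 higher and 451 lower, so the higher share of the calls was 31.7% in place of 62.2%. With the other types weighted equally 152 genes were called higher and 273 lower. The unweighted calls held 146 and 171 of them. Replicate 1 alone would have given 1218 genes higher.

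The genes with the largest folds included ones of DNA synthesis, chromatin assembly and chromosome segregation. By the smaller of its folds in the 2 libraries, the list of 15 genes named by a fixed rule held Rrm2, a subunit of the enzyme that makes deoxynucleotides (5.49-fold and 5.56-fold higher), Esco2, which establishes cohesion of sister chromatids (7.42-fold and 5.59-fold), Asf1b, a histone chaperone (5.90-fold and 5.27-fold), and Tk1, thymidine kinase (6.11-fold and 5.00-fold). Top2a was 6.84-fold and 4.85-fold higher, and it is also a defining marker. Others were the condensin subunits Smc2 and Ncaph, the mitotic kinase Aurkb, the anaphase activator Cdc20, the mitotic kinase Pbk, the spindle motor Kif15, the anaphase inhibitor Fbxo5, the methylated-DNA reader Uhrf1, and 2810417H13Rik, which encodes the PCNA-associated factor PAF15. Each of those named here was at least 4.57-fold higher in each library.

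The G2 and M phase list has 55 genes, of which 46 reached the level and 44 were called higher, with median log2 folds of 2.53 and 1.93. Hmgb2, a chromatin protein, stood at 1187 and 1237 CPM in progenitors and 225 and 339 CPM in the rest. Ube2c, the ubiquitin enzyme of the anaphase-promoting complex, stood at 357 and 478 CPM against 42.1 and 114. Birc5, or survivin, of the chromosomal passenger complex, stood at 298 and 337 CPM against 41.2 and 77.2. In each of these genes both progenitor values lay above both values of the rest. Hn1 and Ctcf reached the level and were not called. TMM scaling left 39 of the list higher, and equal weights 36.

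The kinetochore and spindle list had 25 of 33 genes higher, every one that reached the level. Cenpa, the histone variant of the centromere, was at 220 and 193 CPM against 36.1 and 51.0 in the rest. Cenpf, a kinetochore protein, was at 84.3 and 173 CPM against 11.3 and 43.9. Of 18 condensin and cohesin genes, 12 were higher and 3 of the 15 at the level were not called (Stag1, Stag2 and Pds5a). Smc4, the condensin core subunit, was 5.75-fold and 3.77-fold higher. With TMM scaling these counts were 21 and 6.

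S phase genes were higher too, with 28 of 45 called (29 reached the level) and median log2 folds of 1.84 and 1.81. Tyms, which makes thymidylate, was at 99.4 and 156 CPM against 20.7 and 39.6 in the rest. Nasp, a histone chaperone, was at 90.1 and 164 CPM against 26.3 and 52.0. Slbp, the histone mRNA binding protein, was 2.42-fold and 1.96-fold higher and so just outside the rule. TMM scaling left 21 and equal weights 15. The replication machinery had 26 of 43 genes higher, including Lig1, the ligase that joins lagging-strand fragments (4.28-fold and 4.11-fold), and nucleotide synthesis 13 of 25. TMM scaling left 18 and 8 of these, and equal weights 9 and 6. Of 22 DNA repair and checkpoint genes, 6 reached the level and all of these were higher, 2 with TMM scaling.

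Ribosome biogenesis genes were higher by a smaller margin that depended on the scaling. Of 25 genes, 16 were called, with median log2 folds of 1.43 and 1.24, but 5 with TMM scaling and none with equal weights. Npm1, nucleophosmin, was at 1042 and 1319 CPM against 431 and 582. Ncl, nucleolin, was 3.02-fold and 2.59-fold higher.

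**Figure D2:**
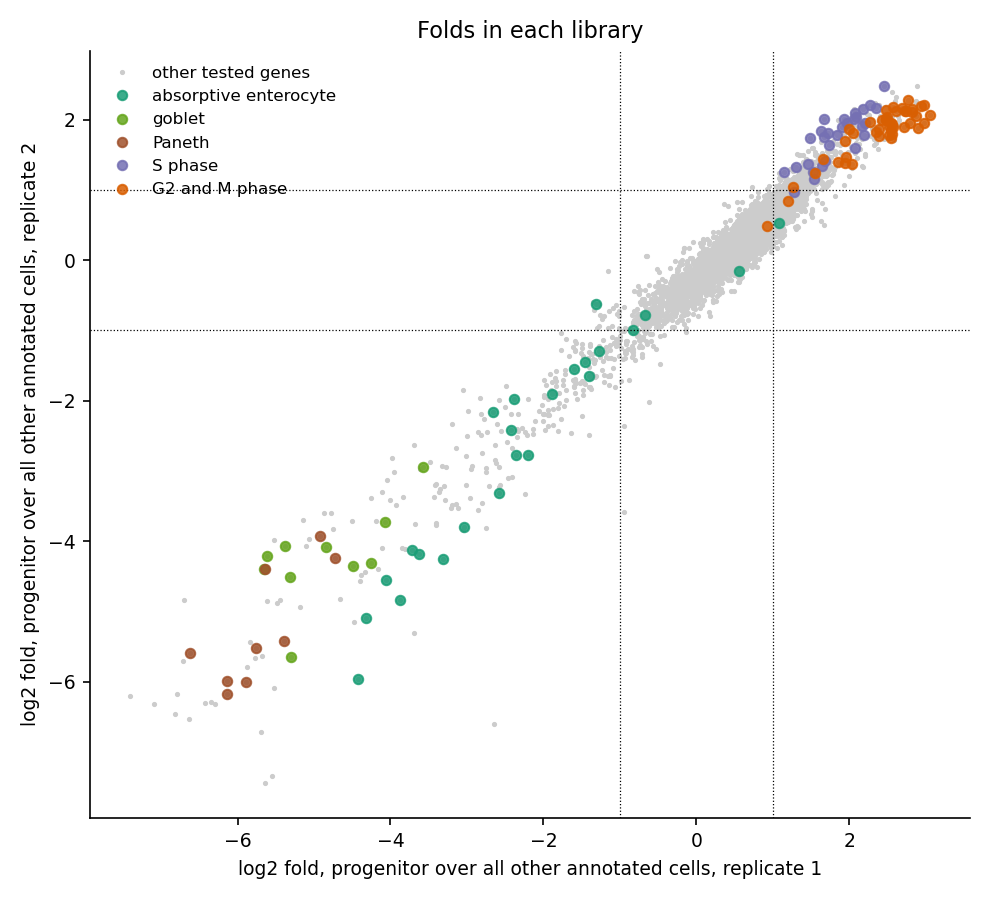
Log2 fold of summed CPM in progenitors over all other annotated cells, replicate 1 across and replicate 2 up, for the 5147 tested genes, with 5 gene lists in colour and dotted lines at 2-fold. G2 and M phase and S phase genes sit at the upper right, and enterocyte, goblet and Paneth genes at the lower left, apart from a few enterocyte genes near or above 0.

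Among cyclins and their kinases, 6 of 18 were called higher, and the G1 genes differed less than the mitotic ones. Ccna2, the cyclin of S and G2 phase, was 6.67-fold and 4.38-fold higher, and Ccnb2 3.99-fold and 3.65-fold. The G1 cyclin Ccnd1 was 3.32-fold and 2.46-fold higher, and its kinase Cdk4 2.67-fold and 2.54-fold. Ccnd2, a related G1 cyclin, was at 413 and 435 CPM against 180 and 299 and was not called. Cyclins E1 and E2, which start S phase, stayed under 13 CPM in progenitors. Of 20 E2F, MYC and mitotic regulators, 6 reached the level. E2f8, an E2F that represses, and Lin54, the DREAM subunit that contacts the CHR, were called higher, and the call of Lin54 was lost with TMM scaling, with equal weights and without Paneth cells. Foxm1, an activator of mitotic genes, was at 23.4 and 17.9 CPM against 4.35 and 3.99 and missed the level in replicate 2.

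Cell cycle inhibitors were split. Cdkn1a, or p21, was at 41.8 and 46.5 CPM in progenitors against 120 and 117 in the rest. Btg2, an antiproliferative gene, was at 30.2 and 47.1 CPM against 77.0 and 151. Gadd45g, a stress-response gene, was 4.61-fold and 3.94-fold lower. Cdkn2c, or p18, was 4.49-fold and 2.54-fold higher, and Trp53 2.70-fold and 2.71-fold, and with TMM scaling neither was called. Of 14 immediate early genes that tissue dissociation is known to induce, Fos, Fosb and Atf3 were lower in progenitors and 7 at the level were not called. TMM scaling called 8 of them lower, and their part in the values of other genes was not tested.

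As a sum, stem cell genes stood between ISC and enterocytes. They summed to 498 and 655 CPM in progenitors, 900 and 1670 in ISC, and 63.7 and 98.8 in enterocytes. Secretory progenitors, EEC and tuft cells held more than progenitors, and goblet and Paneth cells less. Of 20 genes, 7 reached the level in this contrast, and Axin2, a Wnt target, and Aqp4, a water channel, were called higher, neither of them with TMM scaling or equal weights. Lgr5, the Wnt co-receptor that marks crypt stem cells, was at 7.46 and 9.64 CPM in progenitors, 34.0 and 64.1 in ISC and 0.16 and 0.20 in enterocytes. It was seen in 4.55% and 5.06% of thinned progenitors, 19.2% and 28.2% of ISC, and 0.25% and 0.42% of enterocytes. The share was 7.14% and 11.8% in Paneth cells, 16.7% and 9.52% in tuft cells, and 5.71% and 2.38% in EEC. In secretory progenitors it was 0% and 1.41%, and in goblet cells 0% and 0.42%. In the Notch pathway, whose signal keeps crypt cells from the secretory fate, Nrarp, a feedback target, was 3.52-fold and 2.86-fold higher. Nrarp was also called higher with TMM scaling and with equal weights. Hes1, the main effector, was 2.83-fold and 2.06-fold higher, with no call under TMM scaling or equal weights. The ligand gene Dll1 was 2.20-fold and 3.42-fold lower. Sox9, a crypt transcription factor, was at 34.0 and 46.3 CPM against 35.0 and 38.6, and Cd24a, a surface protein, was 3.25-fold and 2.17-fold lower.

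Genes of mature cells were low against the rest, of whose UMIs enterocytes gave 35.6% and 42.8%. Of 25 absorptive enterocyte genes, 19 were lower (21 with TMM scaling, 10 with equal weights). They summed to 4514 and 6020 CPM in progenitors and 68380 and 57580 in enterocytes. ISC (2835 and 2948), secretory progenitors (3214 and 5221), EEC and Paneth cells held less than progenitors. Goblet cells held more (4937 and 7044), and tuft cells more in replicate 1 only. Fabp1, a fatty acid binding protein, was at 711 and 137 CPM in progenitors and 19230 and 5989 CPM in enterocytes. Fabp2, its close relative, was at 1271 and 746 CPM in progenitors and 17530 and 7892 in enterocytes. Hnf4a and Hnf4g, the transcription factors of the absorptive lineage, were not called in either direction, and Hnf4a stood at 275 and 203 CPM in progenitors and 179 and 158 in enterocytes. All 10 goblet genes and all 9 Paneth genes measured were lower, as were the 4 of 14 enteroendocrine genes that reached the level. The 10 largest differences in this direction were Paneth products or genes of the defensin cluster with near-identical copies, among them Ang4, Mptx2, Defa26 and Clps. The median progenitor held 23 Paneth-gene UMIs of 8000 in replicate 1 and 3 in replicate 2, and the median enterocyte 23 and 4, so the level in progenitors was at that of a type that should lack them.

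Against ISC the progenitors differed in mitotic genes and hardly in replication genes. Of 5042 genes at the level, 147 were higher (2.92%) and 32 lower (0.635%). Of the G2 and M phase list, 37 genes were higher, with median log2 folds of 2.20 and 1.99 where all tested genes had 0.14 and 0.15. Top2a was 11.6-fold and 10.9-fold higher, and Aurkb was at 42.3 and 55.9 CPM against 0.83 and 2.76. Kif11, the motor that separates spindle poles, was at 44.1 and 74.5 CPM against 3.31 and 2.76. The ISC sums rest on 78 and 80 cells with 1206930 and 1450911 UMIs, so values of a few CPM in ISC are a few UMIs. Of the S phase list, 31 genes reached the level, 3 were higher, among them Rrm2 and E2f8, 2 were lower (Ung and Cdca7), and the median log2 folds were −0.13 and −0.07. Mcm7, of the replicative helicase, was at 61.2 and 75.4 CPM in progenitors and 73.7 and 98.6 in ISC. None of the 29 replication genes or 23 ribosome biogenesis genes at the level was called in either direction. A thinned ISC held a median of 13 S phase UMIs in each replicate, a progenitor 11 and 12, an enterocyte 1 and 2. For G2 and M phase the medians were 15 and 17 in ISC, and 52 and 63.5 in progenitors.

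Of the 13 stem cell genes at the level, 3 were lower than in ISC (Lgr5, Sox9 and Rgmb) and 10 were not called, among them Ascl2, Smoc2 and Axin2, with median log2 folds of −0.79 and −1.11. Lgr5 was 4.13-fold and 6.12-fold lower, Gkn3, a stem cell zone gene, 4.72-fold and 6.94-fold, and Igfbp4, a secreted IGF-binding protein, 4.13-fold and 3.90-fold. Ifitm3, a membrane protein, was at 365 and 275 CPM against 1153 and 872. Myc, the growth regulator, was at 19.9 and 20.4 CPM against 45.6 and 50.3. Of 17 enterocyte genes at the level, 4 were higher than in ISC (Fabp1, Mttp, Sis and Krt20) and 13 were not called, among them Fabp2, Apoa1 and Vil1. The inhibitor Cdkn2b, or p15, was at 48.9 and 73.5 CPM against 3.31 and 9.65, and Cdkn1a was 3.40-fold and 2.06-fold higher.

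Against secretory progenitors the cell cycle genes did not separate the 2 types, and the lineage genes did. None of the 46 G2 and M phase genes and none of the 29 S phase genes at the level differed 2-fold in both libraries, and the median log2 folds were 0.15 and 0.09 for the first list and 0.18 and 0.46 for the second. Of 5234 genes, 13 were higher in progenitors (0.248%) and 191 lower (3.65%). The 13 were Car4, a carbonic anhydrase of the brush border (3.49-fold and 2.44-fold), Arg2, a mitochondrial arginase (3.34-fold and 2.36-fold), the detoxifying enzyme Mgst1 (2.32-fold and 2.03-fold), Fabp1, Pla2g12b, Aadac, Tm4sf20, Akr1c19, Cmbl, Ugt2a3, Tmem37, Rragd and Pnp2. All 10 goblet genes were lower, as were 5 of 10 genes of secretory commitment. Atoh1, the factor that sets the secretory fate, was at 2.32 and 6.18 CPM in progenitors and 86.5 and 98.0 in secretory progenitors. Muc2, the main mucin, was at 26.0 and 157 CPM against 1645 and 3400.

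Against enterocytes 759 of 5427 genes were higher (14.0%) and 577 lower (10.6%). Of 45 S phase genes, 29 reached the level and all 29 were higher, with median log2 folds of 3.53 and 3.62. Of 55 G2 and M phase genes, 46 reached it and 44 were higher, with medians of 4.14 and 4.14. Of 20 stem cell genes, 7 reached it and all 7 were higher, with medians of 2.60 and 2.56. Of 25 enterocyte genes, 22 were lower. A gene called higher passes the filter through progenitors, so counts and medians among genes at the level support nothing by themselves. Over the whole list, S phase genes summed to 1662 and 2099 CPM in progenitors and 208.5 and 276.9 in enterocytes.

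**Figure D3:**
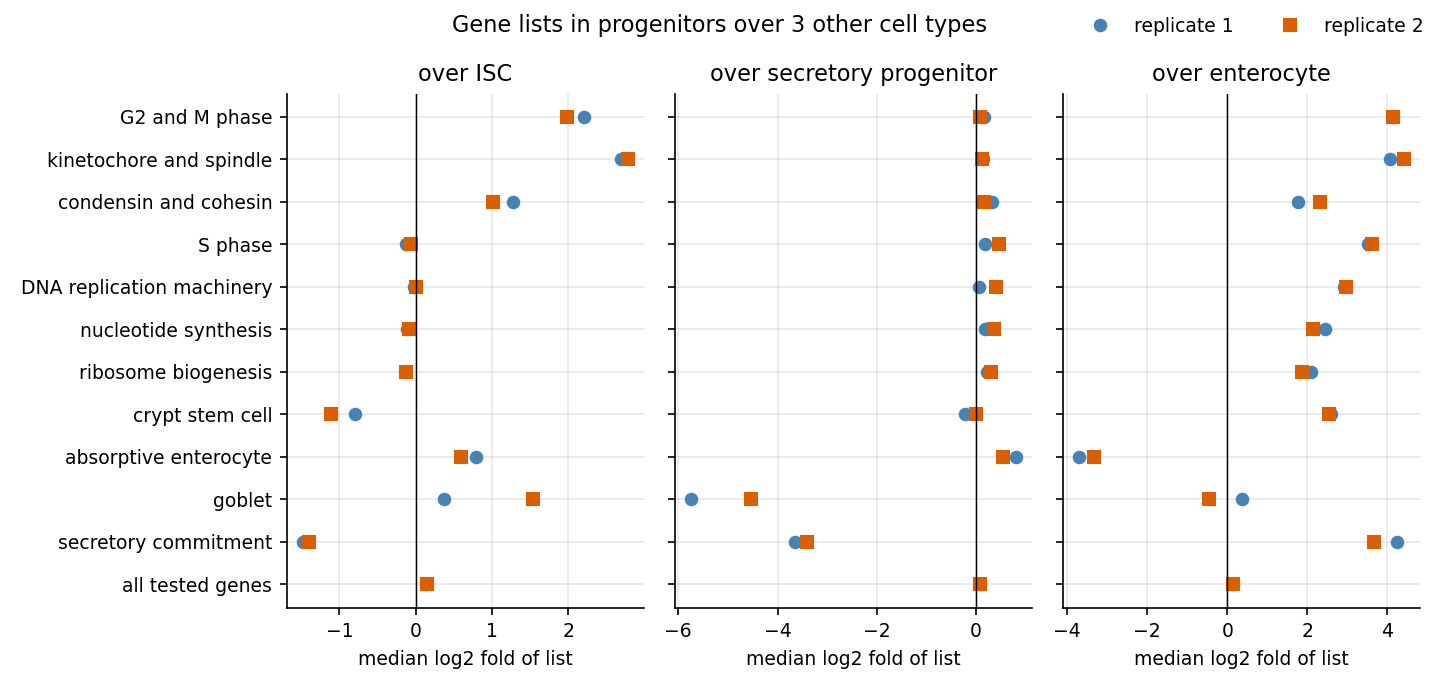
Median log2 fold of each gene list in progenitors over ISC, secretory progenitors and enterocytes, over the members that reached the level, with a circle for replicate 1 and a square for replicate 2. Mitotic lists lie to the right against ISC while S phase and ribosome lists lie near 0, and against secretory progenitors the goblet and commitment lists lie farthest from 0 of those plotted.

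Progenitors varied among themselves in how much enterocyte RNA they held. Thinned progenitors held a median of 25 and 32 UMIs of the enterocyte list, with a range of 7 to 394 and 4 to 526. They were split at the tertiles, 20 and 33 UMIs in replicate 1 and 21 and 49 in replicate 2. This split was chosen after the values were seen, and it cuts a range rather than marking types: 57 and 25 cells lay within 2 UMIs of the lower cut, and 22 and 11 within 2 UMIs of the upper one.

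S phase UMIs were fewer in cells with more enterocyte UMIs, while G2 and M phase UMIs fell less. From the lowest tertile to the highest, the mean S phase UMIs per cell were 17.1, 14.2 and 8.81 in replicate 1, and 23.4, 14.95 and 11.1 in replicate 2. The means for G2 and M phase were 54.3, 51.9 and 49.3, and 67.2, 65.9 and 63.8, and the medians 53.5, 52.5 and 45.5, and 67, 65.5 and 59. The share of cells with a UMI of a defining marker was 93.64%, 84.55% and 80%, and 91.96%, 88.39% and 83.93%. Ribosome biogenesis means were 38.2, 32.6 and 25.9, and 43.1, 34.2 and 27.8. Stem cell gene means were 7.96, 3.06 and 1.57, and 9.27, 3.80 and 1.97. Over single progenitors Spearman's rho of enterocyte and S phase UMIs was −0.42 (330 cells) and −0.48 (336 cells). For enterocyte and G2 and M phase UMIs rho was −0.07 and −0.02. The points share a library and a fixed depth, and S phase and G2 and M phase UMIs had a rho of −0.02 and 0.13 with each other.

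**Figure D4:**
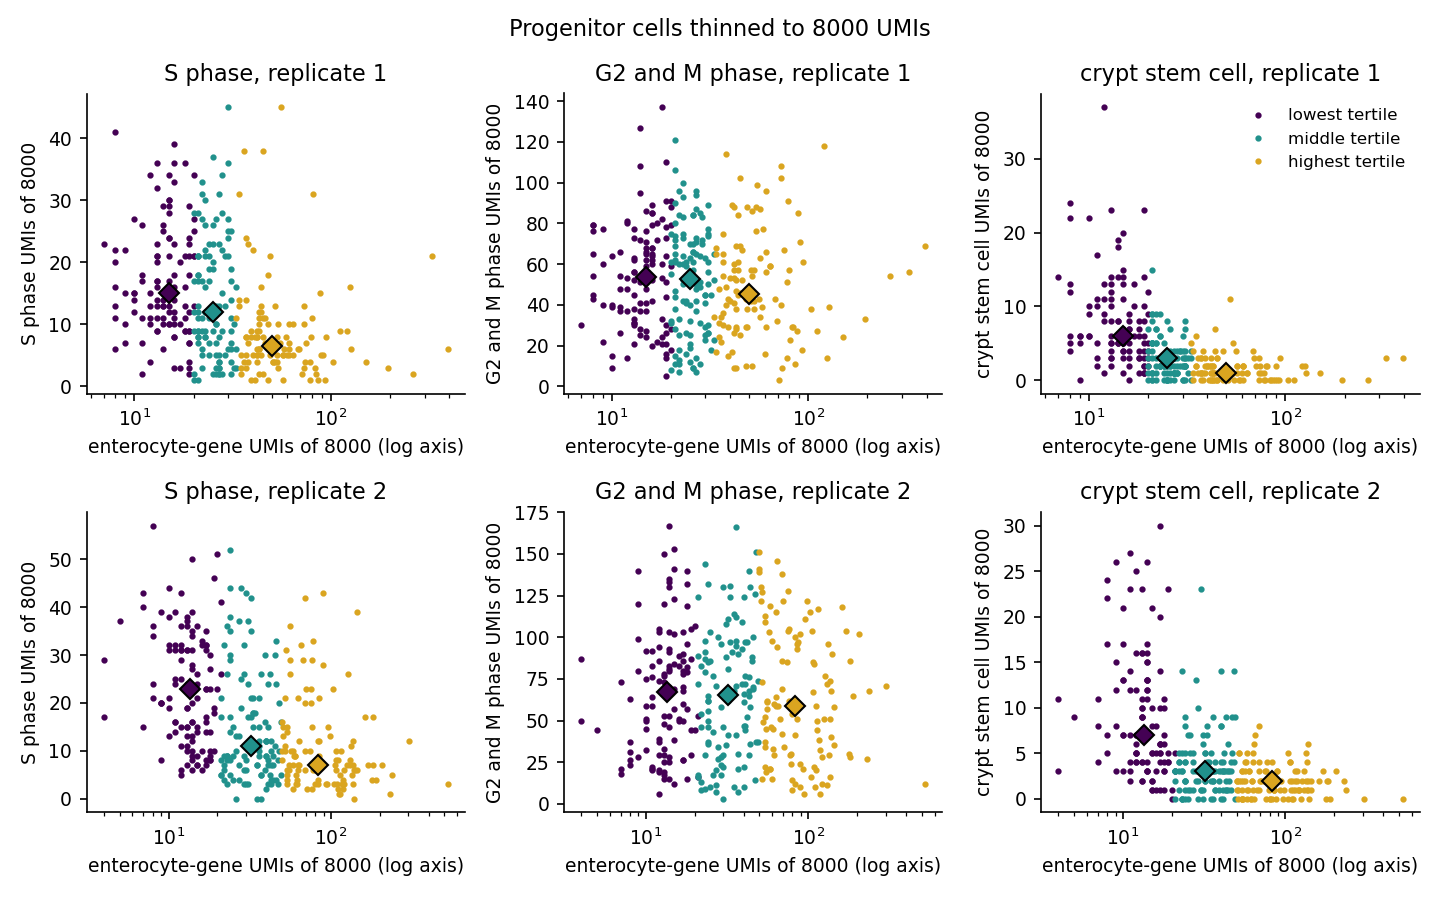
UMIs of 3 gene lists (vertical axes) against enterocyte-list UMIs (log axis) in each progenitor thinned to 8000 UMIs, coloured by tertile, with a diamond at each tertile's medians and 1 row per replicate. S phase and stem cell values come down toward the right in both replicates, and G2 and M phase values spread as widely in each tertile.

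Depth and the genes of other types were compared between tertiles too. The median deposited depth was 16140, 17320 and 18590 UMIs in replicate 1 and 27440, 26510 and 30920 in replicate 2. Median goblet-gene UMIs were 4 in each tertile of replicate 1 and 3 in each of replicate 2, but the means were 6.00, 9.76 and 5.15, and 12.1, 11.9 and 5.29. Median Paneth-gene UMIs were 23, 23 and 22.5, and 4, 3 and 3, with means of 31.5, 23.6 and 23.3, and of 6.78, 9.86 and 3.61, and median leukocyte-list UMIs lay between 8 and 9. Secretory commitment genes had means of 1.41, 0.73 and 0.13 UMIs, and of 1.75, 0.63 and 0.24. Dissociation stress genes had means of 3.12, 4.57 and 5.20, and of 5.15, 4.97 and 5.12. The part of these genes and of depth in the order of the S phase and stem cell genes was not tested.

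Between the lowest and the highest tertile, 106 of 5263 genes were at least 2-fold higher in the lowest in both libraries (2.01%) and 185 in the highest (3.52%). Of 35 S phase genes at the level, 16 were higher in the lowest tertile, as were 11 of 32 replication genes and 9 of 12 stem cell genes. None of 47 G2 and M phase genes or 26 kinetochore and spindle genes was called. Ascl2, the transcription factor of crypt stem cells, was at 58.0, 6.82 and 1.14 CPM in replicate 1 and at 25.7, 3.35 and 0 CPM in replicate 2. Lgr5 was at 22.7, 0 and 1.14 CPM, and at 25.7, 1.12 and 0 CPM. Hells, a chromatin remodeler of S phase, was at 110, 54.5 and 22.7 CPM, and at 100, 49.1 and 25.7 CPM. In these genes both replicates were highest in the lowest tertile. Myc was at 39.8, 19.3 and 11.4 CPM, and at 44.6, 19.0 and 6.70 CPM. Others on the same side by the rule of the largest folds were Slc12a2, Sox4, Cdca7, Cdk6, Cd44, Smoc2 and Notch1.

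Of 10 cell cycle inhibitors at the level, 3 were higher in the highest tertile, with median log2 folds over the lowest of 0.47 and 0.25 for the list, beside 0.13 and 0.06 for all tested genes. Cdkn2b, which blocks the G1 kinases Cdk4 and Cdk6, was at 12.5, 44.3 and 95.5 CPM in replicate 1 and at 11.2, 77.0 and 133 in replicate 2. Cdkn1a was at 15.9, 43.2 and 62.5 CPM, and at 13.4, 40.2 and 65.8 CPM. Car4 was at 31.8, 100 and 192 CPM, and at 22.3, 98.2 and 164 CPM. Further genes on this side were St3gal4, a sialyltransferase, Slc51a, a bile acid transporter subunit, Mogat2, of triglyceride synthesis, Enpep, a brush border peptidase, and Reg3a, an antimicrobial lectin. The defining markers differed less. Top2a was 1.65-fold and 1.61-fold higher in the lowest tertile, Mki67 1.38-fold and 1.16-fold, and Ccnb1 1.14-fold and 1.21-fold higher in the highest. Ccnd1 differed by 1.04-fold and 1.02-fold.

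**Figure D5:**
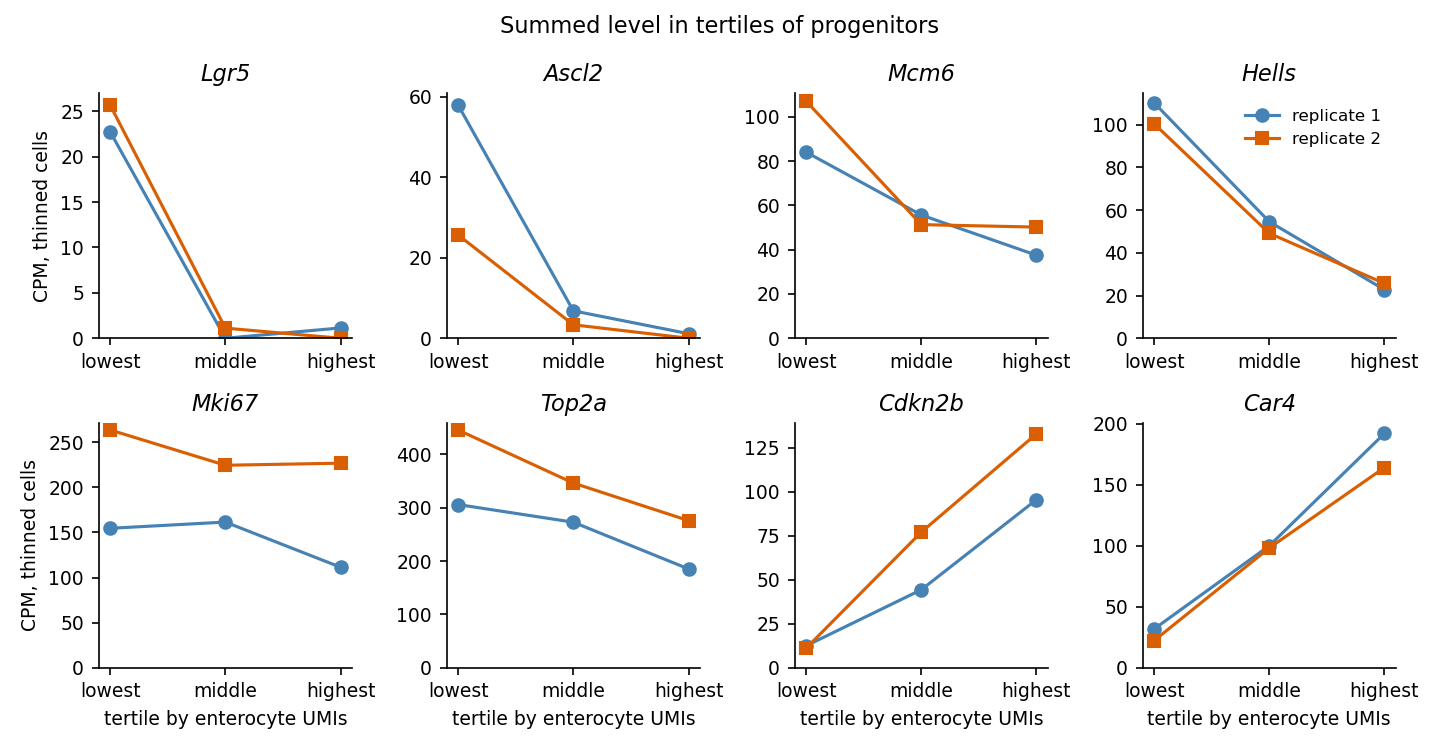
Summed CPM of 8 genes in the tertiles of thinned progenitors by enterocyte UMIs, with a circle and line for replicate 1 and a square and line for replicate 2. Lgr5, Ascl2, Mcm6 and Hells are highest in the lowest tertile, Cdkn2b and Car4 in the highest, and Mki67 and Top2a differ less.

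Some progenitors held no marker UMI at 8000 UMIs, 46 of 330 and 40 of 336. Their median G2 and M phase UMIs were 16.5 and 15, beside 55.5 and 69 in the others, and the markers are part of that list. Their median S phase UMIs were 4 and 5 beside 12 and 14.5, and their ribosome biogenesis UMIs 26.5 and 28.5 beside 32 and 34. Their stem cell UMIs were 2 and 2 beside 3 and 3, and their deposited depth was 14350 and 21330 UMIs beside 17960 and 29240.

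A few progenitors held many goblet-gene UMIs. More than 50 of 8000 were found in 7 of 330 and 20 of 336 progenitors, where the median progenitor had 4 and 3. The 20 cells of replicate 2 had a median deposited depth of 81760 UMIs, beside 27060 in the others of that library, and the 7 of replicate 1 had 18250 beside 17350. Whether they are doublets was not tested. Among secretory progenitors, 0 of 82 and 3 of 142 held 50 or fewer.

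Of the leukocyte list, Cd74 and Gzma reached the level and neither was called, and summed leukocyte levels were 1266 and 1237 CPM in progenitors and 1189 and 1153 in the rest. Cd74, which epithelium also expresses, made up 1222 and 1176 CPM of the sum in progenitors. No stromal or endothelial gene of 12 reached the level. The series also measured miRNAs, and host genes of proliferation-linked miRNA clusters were among the genes higher in progenitors than in the rest. Mcm7, host of the miR-106b cluster, was 3.75-fold and 3.72-fold higher than in the rest, and Smc4, host of the miR-15b cluster, 5.75-fold and 3.77-fold. Neither was called against secretory progenitors, and against ISC Smc4 was called higher and Mcm7 was not called. Mir17hg, the host transcript of the miR-17 cluster, was at 5.64 and 5.36 CPM and did not reach the level.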

How the data were processed

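The deposited files hold UMI counts per gene and cell from 2 10x libraries. Per the labels, the genome build is mm9, and a file header names software version 3.0.1 for replicate 2. The authors' counting steps are otherwise not given in the sources used here. Genes are Ensembl IDs with symbols, 27998 in each matrix. The deposited annotation covers 1144 of 1209 barcodes in replicate 1 and 1470 of 7711 in replicate 2, and its making is not stated. No cell filter was added and no doublet caller was run. Counts were summed by library and type and scaled to CPM. Per-cell values come from cells thinned to 8000 UMIs without replacement. Members and gene lists were chosen with earlier results of these data known. Named genes are the markers, the 15 highest and 10 lowest folds, and up to 6 members per list; some are not reported here. A planned contrast of progenitors without a G2 and M phase UMI could not be made, since each held at least 3. The rule was also run on simulated counts with planted changes and no spread between cells. That run cannot show how real mixtures of cells or the scaling move the calls. Software was Python 3.11.15, SciPy 1.17.1, R 4.3.3 and edgeR 4.0.16 (TMM factors). With 2 libraries each value is given per library. The small RNA tables were not used.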

Additional observations from a re-analysis of the deposited data

Results flagged for a closer look

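Marker UMIs also appeared in barcodes that the annotation leaves out. Replicate 1 has 65 such barcodes and replicate 2 has 6241, of which 65 and 442 reached 8000 UMIs. After thinning, a UMI of Mki67, Top2a, Cdk1 or Ccnb1 was in 24 of the 65 (36.9%, exact binomial 95% interval 25.3 to 49.8) and in 122 of the 442 (27.6%, 23.5 to 32.0). That is above the 8.37% and 9.13% of annotated enterocytes, the lowest type, but not above every differentiated type. EEC held 40% in replicate 1, and Paneth and tuft cells held 30.9% and 52.4% in replicate 2. Of the barcodes without annotation that held a marker UMI, 14 and 98 also held Epcam and no Ptprc, and 9 and 24 held Ptprc.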

How the results depend on the processing

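No paired analysis was possible because the results come from no test; each fold was taken within a library. Against 461 genes higher in progenitors and 280 lower, equal weights for the other types gave 152 higher and 273 lower (171 of these shared), TMM scaling 209 higher and 451 lower, no minimum level 842 and 731, and a pseudocount of 10 CPM 275 higher. Comparison groups chosen after seeing the data gave 296 higher without Paneth cells and 732 without secretory progenitors. Equal weights gave 15 S phase genes higher and 10 enterocyte genes lower. The 2 stem cell genes became 0 with equal weights, TMM scaling or a pseudocount of 10 CPM, 1 without the 5% of cells with most UMIs or without Paneth cells, and 4 without secretory progenitors. Using 1 library alone, the genes higher numbered 550 (replicate 2) to 1218 (replicate 1), the genes lower 329 to 400, and the stem cell genes 3 to 5. The share of progenitors with a marker UMI was 92.6%, and 87.1% after thinning. The cause was not tested for these moves. The other 56 settings of the main values stayed within 1.5 times for counts, or within 1 SD of the 2 libraries otherwise. With 2 libraries, leaving 1 out always stays within that SD, so for shares and UMIs per cell that setting tests nothing. Counts, shares and depths cannot change sign. The log2 fold of the 4 markers stayed between 1.57 and 3.95. Depth limits genes under 20 CPM, such as Lgr5.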
